A study of Mus musculus with 12 samples.

Results

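Glycolysis and hypoxia-inducible genes were examined as a set of 34 genes in mouse bone marrow-derived macrophages, taken by symbol from a table of 47937 genes. The 34 genes cover glucose uptake (2 genes), the hexokinases with glucose-6-phosphate isomerase (4), the phosphofructokinases and their regulators (5), the enzymes from aldolase to pyruvate kinase (9), the lactate and pyruvate branch (6), HIF1A with its partner and negative regulators (5), and 3 other targets of HIF. They were listed by function, with earlier results of these data known, and all 34 passed the filter on low counts, which 11760 genes passed. RNA-seq was done on 12 libraries from C57BL/6 cells grown for 7 days in CSF-1 (20 ng/ml) and medium with 10 mM glucose, with 3 libraries in each of 4 groups. M0 macrophages were resting. IFNγ + LPS macrophages received LPS (20 ng/ml) and IFNγ (50 ng/ml) for 18 h. T863, a small-molecule inhibitor of the triacylglycerol-synthesising enzyme DGAT1 (DGAT1i, 50 µM), was given to resting cells for 18 h in M0 + DGAT1i, and together with the stimuli for 18 h in IFNγ + LPS + DGAT1i. The labels give no time for the M0 libraries, no vehicle for the groups without T863 and no oxygen level, and 2 of the M0 + DGAT1i libraries carry a differing compound number in their free-text description while their source label says T863. One inhibitor at 1 dose was used, so its effect and the effect of DGAT1 blockade cannot be told apart here.

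Glycolysis turns glucose into pyruvate in the cytosol, and activated macrophages are known to raise glucose uptake and lactate release. HIF1A is a transcription factor subunit that pairs with ARNT and binds a short DNA core, ACGTG or GCGTG, near many glycolytic genes. Prolyl hydroxylases (EGLN1, EGLN3) mark HIF1A protein for binding by VHL and breakdown, so the level of Hif1a mRNA and the level of HIF1A protein need not move together.

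Total counts ran from 4996014 to 6621671 reads on genes, and every library correlated better with those of its own group (lowest r = 0.988) than with any other group (highest r = 0.984). All 7 macrophage markers were detected, with a summed level of 12944 to 14197 CPM (reads scaled to the library's depth) in M0, 8225 to 8876 CPM in IFNγ + LPS, 15951 to 17985 CPM in M0 + DGAT1i and 7818 to 8775 CPM in IFNγ + LPS + DGAT1i. Nos2, which encodes inducible nitric oxide synthase, had 0 reads in the M0 libraries and 74753 in the IFNγ + LPS libraries, so the activation labels matched the reads. Of 8 neutrophil markers 7 were detected and Ly6g was at 0, and their sum was 31.6 to 38.7 CPM in M0, 15.2 to 25.5 CPM in IFNγ + LPS, 22.9 to 29.0 CPM in M0 + DGAT1i and 63.0 to 81.0 CPM in IFNγ + LPS + DGAT1i. The 3 dendritic cell markers summed to 0.133 to 0.696 CPM in M0, 5.62 to 7.16 CPM in IFNγ + LPS, 0.264 to 0.568 CPM in M0 + DGAT1i and 1.04 to 1.40 CPM in IFNγ + LPS + DGAT1i. In these bulk samples fewer cells of a type and less RNA per cell cannot be told apart. The labels do not say that the 3 libraries of a group came from separate mice or cultures, so p-values measure only the spread between these libraries, which may be technical. Reads on those annotated near-identical copies that have a row in the count table were at most 0.958% of the reads on the gene (Gapdh), except for Ldhb (2.74%). The reads of 10 copies were not analysed here, namely both copies of Ldha, 3 of 5 of Bnip3, 2 of 4 of Pgk1 and 3 of the 67 of Gapdh, so the share of those genes' reads that could belong to them is not known.

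Promoter sequences are shown for 6 of the genes because their values are described below, from glucose uptake and lactate export to HIF1A, its regulators and targets. Each is the RefSeq stretch from 250 bases before to 50 bases after the annotated start, on build GRCm38.p6 and in the direction of transcription. Capitals mark the HIF core on either strand (ACGTG or GCGTG, read as CACGT or CACGC on the other strand), and CACGTG is also the E-box bound by other factors. They lie at chr4:119108495-119108794 on the plus strand (Slc2a1), chr7:46845554-46845853 on the plus strand (Ldha), chr11:120948817-120949116 on the plus strand (Slc16a3), chr7:138909457-138909756 on the minus strand (Bnip3), chr12:54203825-54204124 on the minus strand (Egln3) and chr12:73907617-73907916 on the plus strand (Hif1a).
Slc2a1: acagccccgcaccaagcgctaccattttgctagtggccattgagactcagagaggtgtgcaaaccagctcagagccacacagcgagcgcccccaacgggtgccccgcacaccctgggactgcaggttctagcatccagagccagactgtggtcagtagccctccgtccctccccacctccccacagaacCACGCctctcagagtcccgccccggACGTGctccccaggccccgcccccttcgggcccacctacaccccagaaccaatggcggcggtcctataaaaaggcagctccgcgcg
Ldha: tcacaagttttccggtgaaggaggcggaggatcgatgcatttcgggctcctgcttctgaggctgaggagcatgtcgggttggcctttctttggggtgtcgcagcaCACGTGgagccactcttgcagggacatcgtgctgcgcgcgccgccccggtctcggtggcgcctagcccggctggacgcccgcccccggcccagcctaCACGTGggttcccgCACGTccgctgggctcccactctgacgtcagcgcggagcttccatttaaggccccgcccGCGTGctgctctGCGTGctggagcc
Slc16a3: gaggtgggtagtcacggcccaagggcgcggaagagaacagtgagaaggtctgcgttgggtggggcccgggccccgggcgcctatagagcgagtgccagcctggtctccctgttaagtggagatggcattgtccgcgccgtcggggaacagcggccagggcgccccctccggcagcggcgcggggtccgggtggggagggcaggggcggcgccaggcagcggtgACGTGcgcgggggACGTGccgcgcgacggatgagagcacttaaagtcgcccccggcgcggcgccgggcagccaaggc
Bnip3: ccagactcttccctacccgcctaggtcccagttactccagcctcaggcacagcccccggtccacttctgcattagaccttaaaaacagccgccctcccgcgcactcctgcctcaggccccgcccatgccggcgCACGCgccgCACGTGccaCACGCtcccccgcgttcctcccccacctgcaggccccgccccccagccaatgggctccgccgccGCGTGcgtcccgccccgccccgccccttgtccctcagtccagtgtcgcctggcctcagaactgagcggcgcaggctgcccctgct
Egln3: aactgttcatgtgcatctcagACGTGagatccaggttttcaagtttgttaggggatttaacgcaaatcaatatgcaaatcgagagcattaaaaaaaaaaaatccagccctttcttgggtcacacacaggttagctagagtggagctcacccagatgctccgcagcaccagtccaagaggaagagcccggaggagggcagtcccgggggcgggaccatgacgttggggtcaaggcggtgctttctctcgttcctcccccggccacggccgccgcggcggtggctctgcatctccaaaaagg
Hif1a: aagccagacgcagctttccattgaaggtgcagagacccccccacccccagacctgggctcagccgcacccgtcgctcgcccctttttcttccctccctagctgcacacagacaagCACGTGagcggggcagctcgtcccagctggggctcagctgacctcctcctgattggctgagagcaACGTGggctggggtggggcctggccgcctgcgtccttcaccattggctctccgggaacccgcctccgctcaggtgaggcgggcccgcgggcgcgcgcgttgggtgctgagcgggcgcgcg

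The table held 48 promoters for the 34 genes, and 38 of them (79.2%) had at least 1 core, against 43.8% of all 32851 promoters of the same length. At least 3 separate cores stood in 25.0% of the promoters of these genes and in 6.55% of all promoters. The E-box was in 6 of the 48 (12.5%) and in 7.15% of all. The Ldha promoter above held 5 separate matches, Bnip3 held 4, and Slc2a1, Slc16a3 and Hif1a held 2 each, while Egln3 held 1, at 229 bases before its start. No match was found in the promoters of Gpi1, Tpi1, Eno2 and Vhl. Promoters of the same gene can overlap, as for Aldoa, Eno1 and Pfkm, so a core can be counted more than once. The promoters were not matched for base content, and some genes of the set were listed as HIF targets. A match describes these letters only, and binding of HIF was not measured.

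The 34 genes together took 0.843% ± 0.0236 (SD, n = 3) of all reads in M0, 0.947% ± 0.0492 in M0 + DGAT1i, 1.53% ± 0.0198 in IFNγ + LPS and 1.68% ± 0.0140 in IFNγ + LPS + DGAT1i. Without Gapdh and Aldoa these shares were 0.628%, 0.681%, 1.22% and 1.32%, in the same order of groups. Per kilobase of the longest coding transcript, Aldoa, which splits fructose-1,6-bisphosphate, had the highest level in all 4 groups (741 ± 13.5 CPM per kb in M0 and 1451 ± 34.7 in IFNγ + LPS; SD, n = 3). Pkm (pyruvate kinase) followed at 653 ± 25.0 CPM per kb in M0, then Gapdh at 464 ± 21.5 and Ldha (lactate dehydrogenase A) at 343 ± 4.17, each apart from the next by more than its SD. Eno1 (216 ± 15.2) and Tpi1 (210.5 ± 13.4), which came next, differed by less than their SDs. At the low end of M0 stood Egln3 (0.485 ± 0.151), below Eno2 (3.80 ± 0.467) and Ldhb (3.97 ± 0.976), the last pair not apart from each other. Slc2a6 moved from rank 31 of 34 in M0 to rank 11 in IFNγ + LPS, and Pfkfb3 from rank 26 to rank 13. With the union of annotated exons as the length, an alternative chosen after the data were seen, Aldoa stayed first in each group and Slc2a6 moved from rank 32 to rank 11, but Hk3 took rank 2 in place of rank 5 in IFNγ + LPS, and in M0 Ldha (188 CPM per kb) passed Gapdh (159 CPM per kb).

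**Figure D1:**
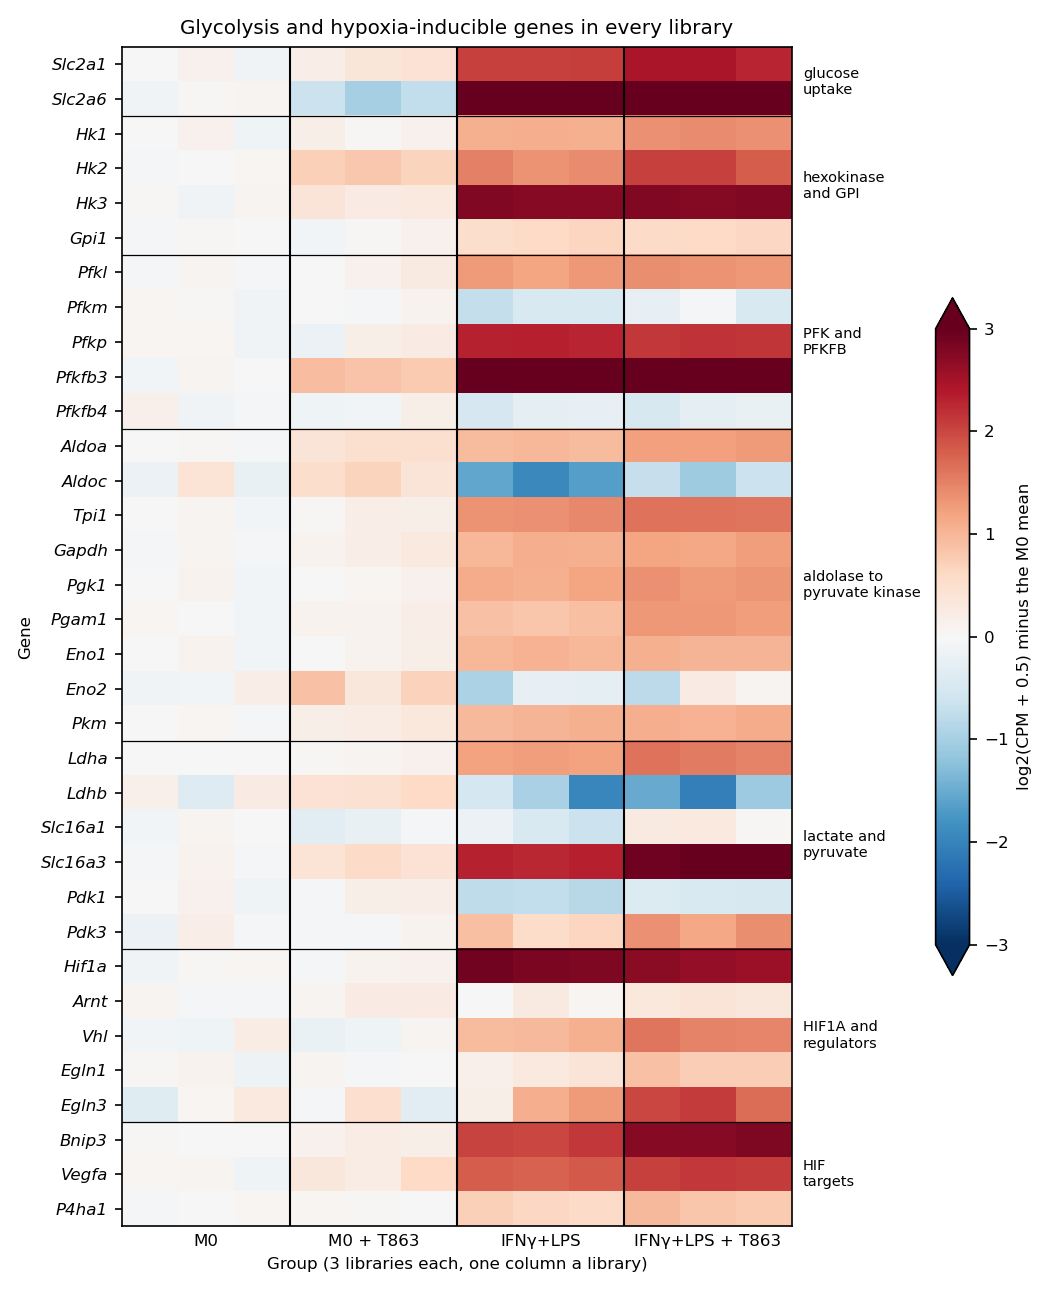
Level of each of the 34 genes (rows, grouped by role) in each of the 12 libraries (columns), as log2(CPM + 0.5) minus the mean of the 3 M0 libraries, with colours saturating at 3 in either direction. Most rows turn red in the IFNγ + LPS columns, while Aldoc, Ldhb, Pdk1, Pfkm, Eno2, Slc16a1 and Pfkfb4 turn blue.

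The first comparison asked how the genes respond to activation. In IFNγ + LPS against M0, 26 of the 34 genes were higher, 6 were lower and 2 did not pass the test (quasi-likelihood test of edgeR, p-values adjusted by Benjamini and Hochberg over 11760 genes, adjusted p under 0.05). Among all genes tested 73.3% were called, 37.1% higher and 36.2% lower. The median log2 fold change was 1.04 over the 34 genes and 0.0064 over all genes. From here on a value in parentheses after a gene or its CPM is a log2 fold change, with its SE where given. The libraries of both groups did not overlap for 25 genes that were higher and 7 that were lower, against 38.2% and 37.1% of all genes. Slc2a6, Pfkfb3, Hif1a, Hk3, Pfkp and Slc16a3 had the largest changes among those called. The marker sums moved as well without overlap, lower for macrophages (8225 to 8876 CPM against 12944 to 14197 CPM) and neutrophils (15.2 to 25.5 CPM against 31.6 to 38.7 CPM) and higher for dendritic cells, and their part in the result was not tested. Scaling by library size alone, without the TMM factors, shifted the median of all genes to -0.46, and then 23 of the 34 were higher and 9 lower, while over all genes 2340 were higher and 7002 lower in place of 4361 and 4254.

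Both glucose carriers of the set rose. Among the carriers listed outside the set, mean CPM went from 25.5 in M0 to 6.41 in IFNγ + LPS for Slc2a8. It went from 19.8 to 11.9 for Slc2a9 and from 8.39 to 2.54 for Slc2a3. Slc2a1, the carrier GLUT1 (chr4:119108711-119137983, plus strand, ENSMUSG00000028645.11; gene coordinates are from GENCODE M21 on GRCm38), had 44.9, 49.3 and 41.9 CPM in the 3 M0 libraries and 188, 189.6 and 191 CPM in IFNγ + LPS, with no overlap. Its log2 fold change was 2.06 ± 0.07 (SE, edgeR adjusted p = 7.71e-34), a 4.17-fold rise. Slc2a6, a carrier known from the lysosomal membrane of macrophages (chr2:27021363-27027998, minus strand, ENSMUSG00000036067.12), went from 8.86, 9.85 and 10.2 CPM to 319, 306 and 297 CPM. This 31.8-fold rise (4.99 ± 0.08 SE, edgeR adjusted p = 1.41e-49) was the largest change of the 34 genes.

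All 3 hexokinases, which trap glucose as glucose-6-phosphate, rose. Hk3 (chr13:55005985-55021385, minus strand, ENSMUSG00000025877.14) had 378, 344 and 391 CPM in M0 and 2539, 2455 and 2443 CPM in IFNγ + LPS, far apart in every library (2.74 ± 0.06 SE, edgeR adjusted p = 2.54e-44). Hk2 (chr6:82725025-82774454, minus strand, ENSMUSG00000000628.10), the isozyme usually induced with glycolysis, had 57.4, 58.7 and 61.1 CPM in M0 and 168, 152 and 159 CPM after stimulation. The groups did not overlap, and the log2 fold change was 1.43 ± 0.07 (SE, edgeR adjusted p = 9.56e-27). Hk1 changed by 1.08 ± 0.06 and the isomerase Gpi1, whose product enters the phosphofructokinase step, by 0.60 ± 0.05 on the log2 scale (SE), both called.

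At the phosphofructokinase step the isozymes parted. Pfkp (chr13:6579768-6648777, minus strand, ENSMUSG00000021196.13) went from 104, 105 and 92.6 CPM to 499, 509 and 492 CPM (2.32 ± 0.07 SE, edgeR adjusted p = 1.15e-25). It shares 748 exon bases with Pitrm1 on the opposite strand, and whether counting used strand is not known. Other genes of the set also share exon bases with a neighbour. Among them, Pkm shares 767 with Gm49759, Pfkm 341 with Gm26513 and Hif1a 148 with Gm49321 on the same strand. Gpi1 shares 741 with Gm26762 on the opposite strand. Pfkl rose by 1.25 ± 0.06 (SE), whereas Pfkm, the muscle isozyme and the lowest of the 3, was lower (log2 fold change -0.56 ± 0.14, SE), from 16.7, 16.4 and 14.9 CPM to 9.47, 11.5 and 11.4 CPM. Pfkfb3 and Pfkfb4 make and break fructose-2,6-bisphosphate, the activator of phosphofructokinase. Pfkfb3 (chr2:11471433-11554077, minus strand, ENSMUSG00000026773.19) had 25.9, 29.0 and 27.3 CPM in M0 and 469, 495 and 445 CPM in IFNγ + LPS. This 17.1-fold rise (4.10 ± 0.07 SE, edgeR adjusted p = 3.33e-47) was second to that of Slc2a6, while Pfkfb4 was lower (-0.33 ± 0.10 SE, edgeR adjusted p = 0.00218).

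From aldolase to pyruvate kinase 7 of 9 genes rose, and the log2 fold changes of those 7 ran from 0.87 (Pgam1) to 1.38 (Tpi1). Gapdh (chr6:125161715-125166467, minus strand, ENSMUSG00000057666.18), which oxidises glyceraldehyde-3-phosphate, went from 642, 694 and 640.3 CPM to 1321, 1401 and 1375 CPM (1.05 ± 0.05 SE, edgeR adjusted p = 2.83e-25). Pkm (chr9:59656368-59679375, plus strand, ENSMUSG00000032294.16) went from 1600.0, 1641 and 1522 CPM to 3113, 3229 and 3319 CPM (1.02 ± 0.05 SE, edgeR adjusted p = 6.53e-25). No library of either group overlapped for these genes. Aldoa, Pgk1 and Eno1 had log2 fold changes of 0.97, 1.12 and 1.01. Of the minor isozymes Aldoc and Eno2 of the same steps, only Aldoc was called, in the other direction. Aldoc fell (-1.87 ± 0.20 SE, edgeR adjusted p = 1.18e-11), from 12.8, 19.6 and 12.4 CPM to 4.63, 3.42 and 4.31 CPM, and Eno2 had a log2 fold change of -0.47 that did not pass the test (edgeR adjusted p = 0.0599, 95% interval -0.93 to -0.01), although its libraries did not overlap. The Eno2 call was gained with library size only, without the low-count filter, with the replicate number as a block (edgeR adjusted p = 0.0483), in a fit of the compared libraries alone and in 4 of 12 fits that left out a library.

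In the lactate and pyruvate branch 3 genes rose and 3 fell. Ldha (chr7:46841475-46855627, plus strand, ENSMUSG00000063229.14), which makes lactate from pyruvate, went from 615, 629 and 625 CPM to 1443, 1482 and 1446 CPM (1.23 ± 0.05 SE, edgeR adjusted p = 4.59e-29). Slc16a3, the lactate exporter MCT4 (chr11:120948480-120960868, plus strand, ENSMUSG00000025161.16), had 55.4, 62.3 and 55.0 CPM in M0 and 289, 278 and 292 CPM in IFNγ + LPS. The rise was 4.97-fold (2.31 ± 0.06 SE, edgeR adjusted p = 7.80e-38) with no overlap. Slc16a1, the carrier MCT1, was lower (-0.43 ± 0.12 SE, edgeR adjusted p = 0.00115), with 23.0, 25.6 and 24.4 CPM in M0 and 21.3, 17.6 and 15.4 CPM after stimulation. Ldhb, the isozyme that favours pyruvate, was near the detection limit with 111 reads in M0 and 34 in IFNγ + LPS over 3 libraries each, and was lower (-1.24). Pyruvate dehydrogenase kinases keep pyruvate out of mitochondrial oxidation. Pdk1 fell from 91.7, 100.1 and 84.0 CPM to 53.7, 55.1 and 51.5 CPM (-0.78 ± 0.08 SE, edgeR adjusted p = 1.25e-13) and Pdk3 rose from 10.5, 13.7 and 11.6 CPM to 22.7, 17.5 and 18.7 CPM (0.71 ± 0.14 SE, edgeR adjusted p = 6.36e-06), although the Pdk3 call was lost when only library size was used for scaling (edgeR adjusted p = 0.104).

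Among HIF1A and its regulators, Hif1a (chr12:73901375-73947530, plus strand, ENSMUSG00000021109.13) rose 7.19-fold, from 92.1, 101 and 103 CPM to 737, 703 and 696 CPM (2.85 ± 0.06 SE, edgeR adjusted p = 2.96e-44). Its partner Arnt had 51.1, 47.3 and 47.6 CPM in M0 and 48.6, 58.3 and 50.8 CPM in IFNγ + LPS, which overlapped, and its log2 fold change was 0.12 (95% interval -0.05 to 0.28, edgeR adjusted p = 0.194), turning to -0.35 with library size only. Vhl rose by 1.01 ± 0.11 (SE). Egln1 was higher by 0.27 ± 0.08 (SE) with TMM scaling but lower by library size only (log2 fold change -0.20), so its direction rests on the scaling. Egln3 had 28 and 45 reads in the M0 and IFNγ + LPS libraries, and its call (1.13, edgeR adjusted p = 0.00630) was lost without IFNγ + LPS replicate 3 (adjusted p = 0.0680) and with library size only. The 3 other targets all rose. Bnip3 (chr7:138890836-138909519, minus strand, ENSMUSG00000078566.8), a mitophagy receptor that shares 504 exon bases with the antisense gene Gm45507 (not analysed here), went from 29.1, 28.2 and 28.1 CPM to 117, 116 and 125 CPM (2.07 ± 0.07 SE, edgeR adjusted p = 8.26e-33). Vegfa, an angiogenic growth factor, rose by 1.82 ± 0.07, and P4ha1, a collagen prolyl hydroxylase subunit, by 0.65 ± 0.06 on the log2 scale (SE).

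**Figure D2:**
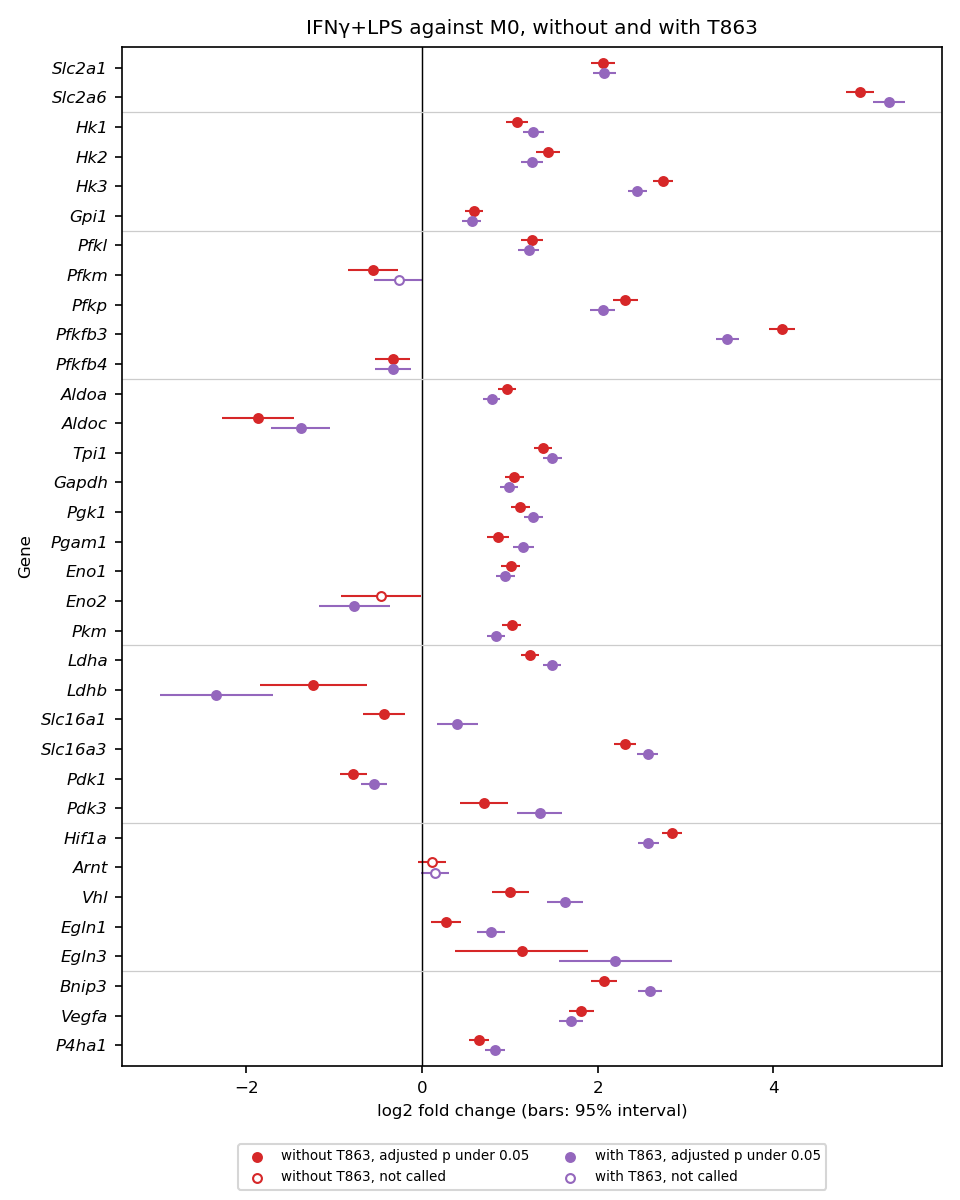
Log2 fold change of each gene in IFNγ + LPS against M0 without T863 (red) and with T863 in both arms (purple), with 95% intervals from edgeR and filled points where the adjusted p was under 0.05. Filled points lie to the right of 0 for 26 genes without and 27 genes with the inhibitor, and Slc16a1 is the one gene called in opposite directions.

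The second comparison asked what the DGAT1 inhibitor did in stimulated macrophages. It shares the IFNγ + LPS libraries with the first. With DGAT1i, 22 of the 34 genes were higher, 3 were lower and 9 did not pass the test, where 29.8% of all genes were called, 13.5% higher and 16.3% lower. The libraries did not overlap for 23 genes in the upward and 3 in the downward direction, against 18.1% and 21.6% of all genes. The median log2 fold change was 0.28 over the 34 genes and -0.012 over all. The called changes ran from -0.52 (Slc2a6) to 1.13 (Egln3). The lactate and pyruvate branch (5 of 6 higher), the HIF1A group (4 of 5 higher, with Hif1a itself lower) and the 3 other HIF targets (all higher) held 12 of the 22 rises. The neutrophil marker sum was also higher in these libraries (63.0 to 81.0 CPM against 15.2 to 25.5 CPM) and the dendritic cell marker sum lower (1.04 to 1.40 CPM against 5.62 to 7.16 CPM), and their part in the result was not tested.

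Slc16a3 rose further, to 439.9, 492 and 495 CPM in the 3 IFNγ + LPS + DGAT1i libraries. All 3 stood above the highest library without inhibitor, and the log2 fold change was 0.73 ± 0.06 (SE, edgeR adjusted p = 3.90e-16). Slc16a1, which activation alone had lowered, was at 29.2, 29.6 and 25.0 CPM, above all 3 libraries without inhibitor (0.64 ± 0.13 SE, edgeR adjusted p = 5.95e-05). Ldha reached 1940.1, 1834 and 1749.8 CPM (0.34 ± 0.05 SE, edgeR adjusted p = 2.80e-07). Of the kinases, Pdk3 stood at 31.3, 27.1 and 32.0 CPM (0.62 ± 0.12 SE, edgeR adjusted p = 6.79e-05) and Pdk1 at 69.4, 67.0 and 65.8 CPM (0.34 ± 0.08 SE, edgeR adjusted p = 0.00138), both without overlap. Ldhb had 20 reads over 3 libraries and did not pass the test (95% interval of the log2 fold change -1.47 to 0.28).

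The 3 negative regulators of HIF1A in the set, Egln1, Vhl and Egln3, were higher with the inhibitor in stimulated cells. Of other genes that restrain HIF1A, named here after their values were seen, the hydroxylases Egln2 (-0.16, edgeR adjusted p = 0.178) and Hif1an (-0.16, edgeR adjusted p = 0.177) did not pass the test. The other subunits of the VHL ligase went different ways. Elob (0.31 ± 0.07 SE, edgeR adjusted p = 4.36e-04) was higher, Cul2 (-0.24 ± 0.07 SE, edgeR adjusted p = 0.00377) was lower and Rbx1 (-0.10) did not pass the test, while the higher call of Eloc (0.23, edgeR adjusted p = 0.0458) was lost with DESeq2, library size only and no low-count filter and in 8 of 12 fits that left out a library. Egln1 (chr8:124908587-124949324, minus strand, ENSMUSG00000031987.5), the main prolyl hydroxylase, had 80.1, 72.4 and 72.4 CPM against 47.8, 52.7 and 56.2 CPM without it. These did not overlap, and the log2 fold change was 0.52 ± 0.08 (SE, edgeR adjusted p = 1.25e-06). Vhl (chr6:113623959-113631633, plus strand, ENSMUSG00000033933.13), the substrate receptor of the ubiquitin ligase that removes HIF1A, had 58.0, 53.2 and 52.8 CPM against 36.6, 37.1 and 39.3 CPM (0.54 ± 0.10 SE, edgeR adjusted p = 1.16e-05). Egln3 (chr12:54178981-54203860, minus strand, ENSMUSG00000035105.5), a hydroxylase that HIF itself is known to induce, had 6.59, 7.09 and 5.14 CPM against 1.47, 3.24 and 3.75 CPM, on 88 and 45 reads, and the largest fold of the set (1.13 ± 0.30 SE, edgeR adjusted p = 0.00236). Hif1a moved down, with 642, 621 and 588 CPM against 737, 703 and 696 CPM and no overlap (-0.21 ± 0.05 SE, edgeR adjusted p = 0.00163). Arnt was higher by 0.23 ± 0.08 (SE, edgeR adjusted p = 0.0314), a call lost with DESeq2, without the low-count filter and in 4 fits that left out a library.

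Of the other HIF targets, Bnip3 had 192, 193 and 200.3 CPM, well above the IFNγ + LPS libraries (0.71 ± 0.06 SE, edgeR adjusted p = 2.31e-14, 1.63-fold). Vegfa was at 206, 217 and 214 CPM (0.28 ± 0.06 SE, edgeR adjusted p = 5.18e-04) and P4ha1 at 282, 256 and 247 CPM (0.23 ± 0.06 SE, edgeR adjusted p = 0.00122). Both groups of 3 libraries stood above all those without inhibitor.

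**Figure D3:**
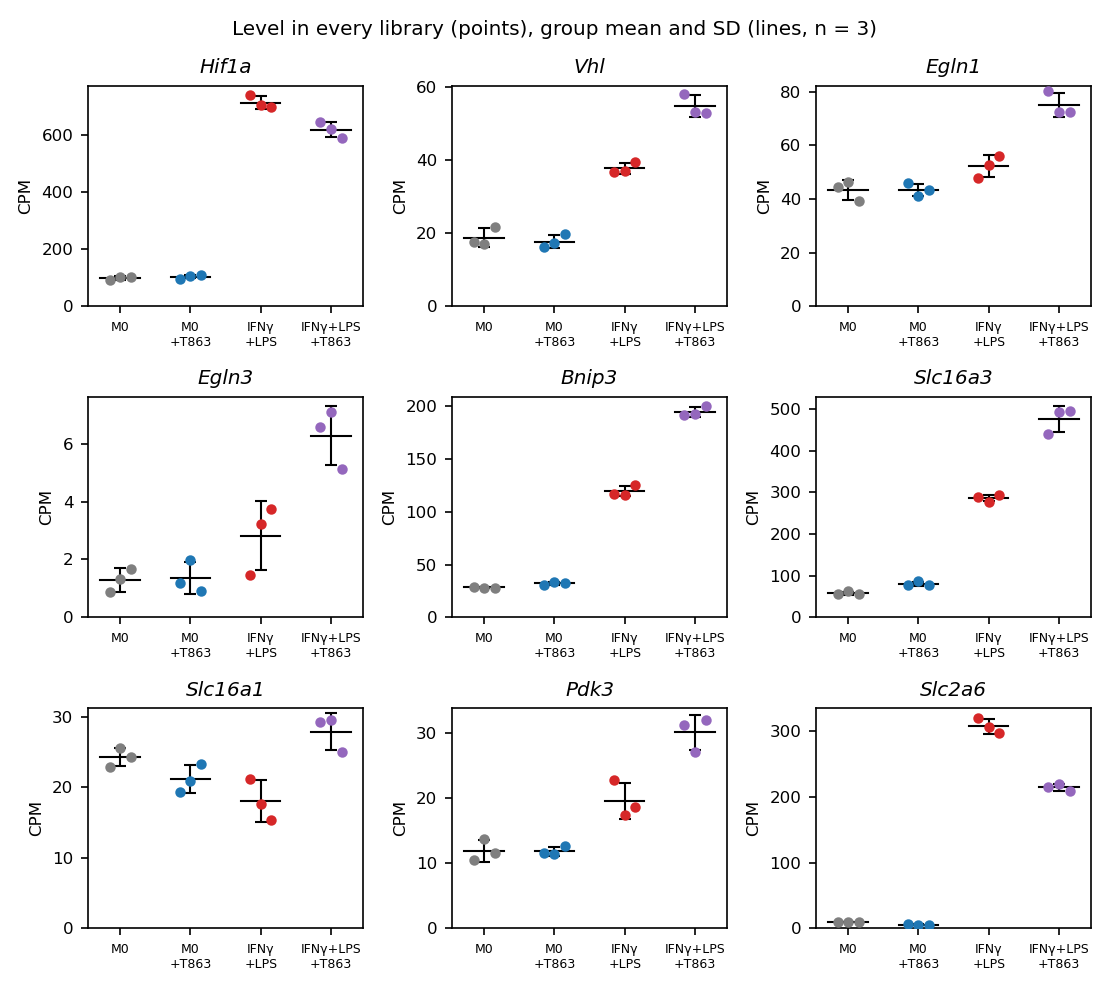
CPM of 9 genes in each of the 12 libraries (points) by group, with the group mean and SD (lines, n = 3). Every IFNγ + LPS + DGAT1i library lies above all others for Vhl, Egln1, Bnip3, Slc16a3 and Pdk3, while Hif1a and Slc2a6 are lower there than in IFNγ + LPS.

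Earlier steps of the pathway changed less evenly. Slc2a1 had 249, 251 and 223 CPM with the inhibitor (0.35 ± 0.06 SE, edgeR adjusted p = 5.94e-06), while Slc2a6 went down to 215, 219 and 209 CPM (-0.52 ± 0.05 SE, edgeR adjusted p = 2.75e-11). The carriers thus moved in opposite directions, each without overlap. Hk2 rose to 246, 248 and 209 CPM (0.55 ± 0.06 SE, edgeR adjusted p = 1.00e-10) and Hk1 by 0.30 ± 0.06 (SE), whereas Hk3 did not pass the test (0.02, 95% interval -0.08 to 0.13). Gpi1 likewise had a log2 fold change of 0.0021 with a 95% interval of -0.10 to 0.11. Pfkfb3 was higher by 0.25 ± 0.06 (SE, edgeR adjusted p = 3.42e-04), with 527, 618 and 529 CPM. Pfkp was lower (-0.17 ± 0.06 SE, edgeR adjusted p = 0.0445), a call lost with DESeq2 and in 7 of 12 fits that left out a library, and Pfkl, Pfkm and Pfkfb4 did not pass the test.

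From aldolase to pyruvate kinase 6 of 9 genes were higher. Aldoc, a minor isozyme, nearly doubled, to 8.85, 6.68 and 9.11 CPM from 4.63, 3.42 and 4.31 CPM (1.00 ± 0.25 SE, edgeR adjusted p = 0.00141), on 114 and 64 reads. Pgam1, which moves the phosphate of phosphoglycerate, was at 186, 186 and 179.8 CPM (0.43 ± 0.06 SE, edgeR adjusted p = 5.29e-08). Aldoa, Tpi1 and Pgk1 had log2 fold changes of 0.28, 0.24 and 0.20, all called. Gapdh was at 1503, 1469 and 1561 CPM (0.15 ± 0.05 SE, edgeR adjusted p = 0.0293), a call lost without the low-count filter (adjusted p = 0.220) and without IFNγ + LPS replicate 1 or 3 or IFNγ + LPS + DGAT1i replicate 3 (adjusted p up to 0.144). Pkm (0.06, 95% interval -0.04 to 0.17), Eno1 (0.03, -0.08 to 0.13) and Eno2 (0.37, -0.13 to 0.87) did not pass the test. Eno2 was called higher without IFNγ + LPS + DGAT1i replicate 1, and its log2 fold change ran from 0.14 to 0.65 over the fits that left out a library.

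The third comparison asked what the inhibitor did in resting macrophages, and it shares the M0 libraries with the first. In M0 + DGAT1i against M0, 11 of the 34 genes were higher, 1 was lower and 22 did not pass the test, where 24.4% of all genes were called, 11.0% higher and 13.4% lower. The libraries did not overlap for 15 genes in the upward direction and 1 in the downward, against 17.9% and 19.9% of all genes. The median log2 fold change was 0.13 over the 34 genes and 0.0037 over all. Among called genes whose groups did not overlap, Pfkfb3, Slc2a6, Hk2, Eno2, Slc16a3 and Aldoa had the largest changes. None of the 5 genes of HIF1A and its regulators passed the test, although Arnt (0.19, edgeR adjusted p = 0.0548) was called in a fit of the compared libraries alone (adjusted p = 0.0374) and in 3 of 12 fits that left out a library. The macrophage marker sum was also higher in the treated libraries (15951 to 17985 CPM against 12944 to 14197 CPM) and the neutrophil marker sum lower (22.9 to 29.0 CPM against 31.6 to 38.7 CPM), and their part in the result was not tested.

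Pfkfb3 had 52.5, 50.0 and 47.9 CPM against 25.9, 29.0 and 27.3 CPM in M0, without overlap (0.87 ± 0.08 SE, edgeR adjusted p = 1.15e-12). Hk2 had 96.7, 104 and 94.2 CPM against 57.4, 58.7 and 61.1 CPM (0.73 ± 0.07 SE, edgeR adjusted p = 3.92e-13), and Slc16a3 had 76.6, 86.2 and 77.3 CPM against 55.4, 62.3 and 55.0 CPM (0.47 ± 0.07 SE, edgeR adjusted p = 1.46e-07). For each of these genes every treated library lay above every untreated one. Slc2a1 was higher (0.33 ± 0.08 SE, edgeR adjusted p = 4.44e-04), with 51.8, 58.6 and 61.4 CPM. Slc2a6 was the 1 gene that fell, to 5.98, 4.54 and 5.54 CPM (-0.84 ± 0.15 SE, edgeR adjusted p = 9.94e-06), so the carriers also parted in resting cells. Aldoa was at 1497, 1606 and 1613 CPM (0.45 ± 0.05 SE, edgeR adjusted p = 1.42e-10) and Eno2 at 19.8, 13.5 and 17.3 CPM (0.67 ± 0.18 SE, edgeR adjusted p = 0.00539). Vegfa (0.40), Hk3 (0.31), Pkm (0.24) and Gapdh (0.21) were also higher, each without overlap. Aldoc was higher by 0.51 ± 0.13 (SE) but overlapped between groups, and DESeq2 gave an adjusted p of 0.0783. Ldha (0.08, 95% interval -0.02 to 0.18) and Hif1a (0.06, -0.06 to 0.19) did not pass the test, nor did Bnip3 (0.18, 0.01 to 0.34), whose treated libraries all lay above the untreated ones.

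**Figure D4:**
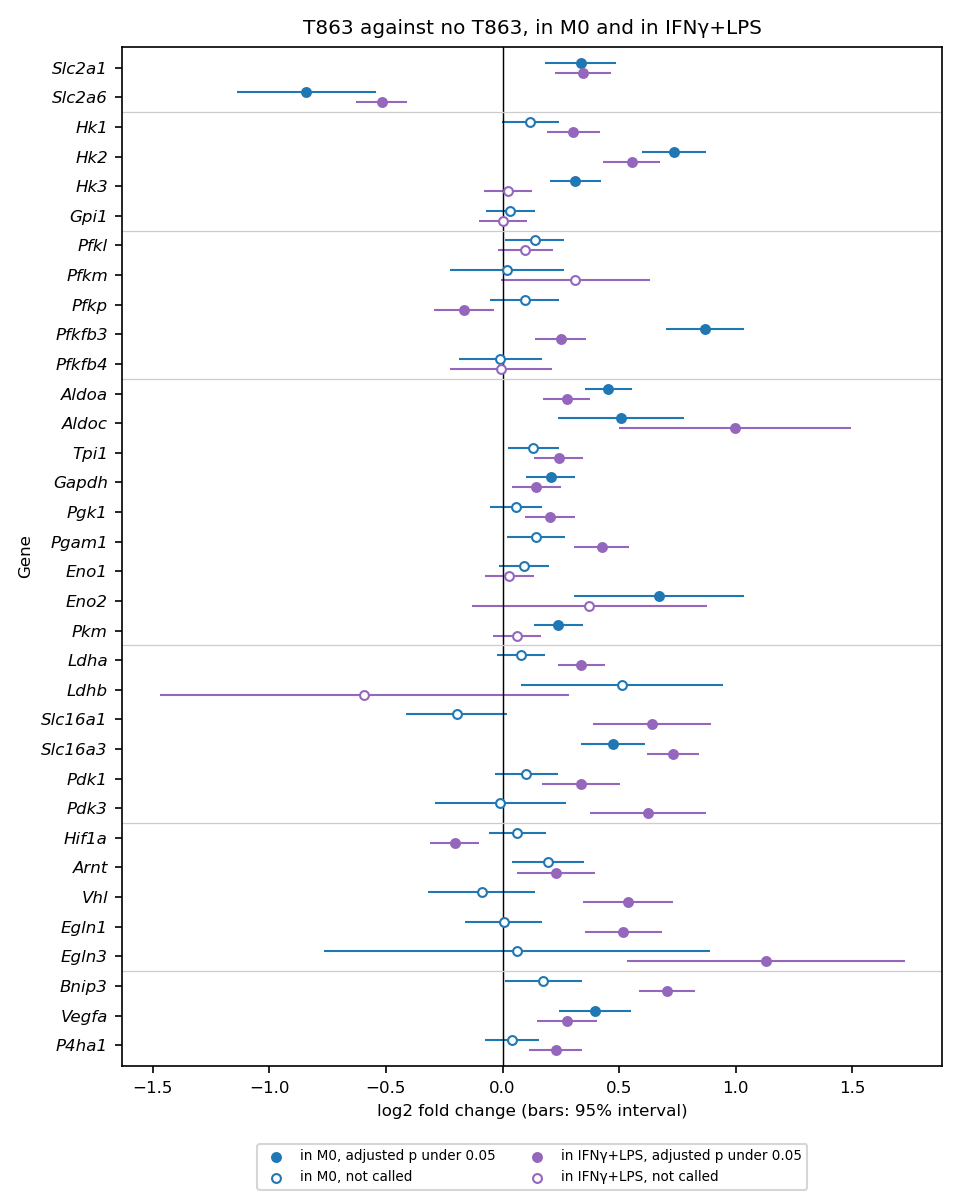
Log2 fold change of each gene with T863 against without it, in M0 (blue) and in IFNγ + LPS (purple), with 95% intervals from edgeR and filled points where the adjusted p was under 0.05. The purple points are filled and right of 0 for 22 genes and the blue points for 11, and Slc2a6 lies left of 0 in both.

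Whether the inhibitor acted differently in stimulated and resting cells was tested as the difference of both responses (an interaction term over all 12 libraries). The difference (response in IFNγ + LPS minus response in M0, in log2 units, given in parentheses) was higher than 0 for 8 of the 34 genes, lower for 3 and not called for 23, where 18.5% of all genes were called, 8.66% higher and 9.80% lower. Over the fits that left out a library, 6 to 9 of the 34 were higher and 2 to 6 lower. A larger response in IFNγ + LPS was found for Slc16a1 (0.84 ± 0.17 SE, edgeR adjusted p = 1.42e-04), Pdk3 (0.63 ± 0.19 SE, edgeR adjusted p = 0.0113), Vhl (0.63 ± 0.15 SE, edgeR adjusted p = 0.00145), Bnip3 (0.53 ± 0.10 SE, edgeR adjusted p = 9.71e-05) and Egln1 (0.51 ± 0.12 SE, edgeR adjusted p = 7.88e-04). In resting cells the same genes had log2 fold changes of -0.20, -0.01, -0.09, 0.18 and 0.0043, none of them called. Pgam1 (0.28 ± 0.09 SE, edgeR adjusted p = 0.0148), Ldha (0.26 ± 0.07 SE, edgeR adjusted p = 0.00623) and Slc16a3 (0.26 ± 0.09 SE, edgeR adjusted p = 0.0311) were also called. A difference below 0 was found for Pfkfb3 (-0.62 ± 0.10 SE, edgeR adjusted p = 3.98e-06), Hk3 (-0.29 ± 0.07 SE, edgeR adjusted p = 0.00351) and Hif1a (-0.27 ± 0.08 SE, edgeR adjusted p = 0.0121). The log2 fold changes in IFNγ + LPS and in M0 were 0.25 and 0.87 for Pfkfb3, 0.02 and 0.31 for Hk3, and -0.21 and 0.06 for Hif1a, of which the Hk3 value in IFNγ + LPS and the Hif1a value in M0 were not called. For Slc2a1 the responses in both states were 0.35 and 0.33, and their difference had a 95% interval of -0.18 to 0.21. Gapdh (-0.21 to 0.09), Pkm (-0.33 to -0.03) and Hk2 (-0.36 to 0.0034) did not pass the test of the difference either. The Slc16a3 call was lost with DESeq2, without the low-count filter and in 6 of 12 fits that left out a library. The Pdk3 call was lost with DESeq2 (adjusted p = 0.0605) and without M0 replicate 2, and the Pgam1 and Hif1a calls without M0 replicate 1 (adjusted p = 0.0602 and 0.0679). The Pgam1 call was also lost without the low-count filter (adjusted p = 0.0924). The marker sums also responded to the inhibitor in unlike ways in both states, as given above, and their part in these differences was not tested.

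With the inhibitor present in both arms, activation raised 27 of the 34 genes and lowered 5, and 2 did not pass the test, where 70.6% of all genes were called, 35.3% in each direction. The groups did not overlap for 28 genes in the upward and 6 in the downward direction, against 36.1% and 36.5% of all genes. The median log2 fold change was 1.23 over the 34 genes and -0.012 over all. This comparison shares no library with that of IFNγ + LPS against M0, and 26 genes were called higher and 4 lower in both, beside 30.7% and 29.7% of all genes. Between these groups the macrophage marker sum was lower (7818 to 8775 CPM against 15951 to 17985 CPM) and those of neutrophils (63.0 to 81.0 CPM against 22.9 to 29.0 CPM) and dendritic cells (1.04 to 1.40 CPM against 0.264 to 0.568 CPM) were higher, and their part in the result was not tested. Slc2a6 (5.31 ± 0.09 SE, edgeR adjusted p = 4.98e-48), Pfkfb3 (3.48 ± 0.07 SE, edgeR adjusted p = 2.16e-45), Bnip3 (2.60 ± 0.07 SE, edgeR adjusted p = 7.18e-39), Hif1a (2.58 ± 0.06 SE, edgeR adjusted p = 3.85e-42), Slc16a3 (2.57 ± 0.06 SE, edgeR adjusted p = 3.75e-41) and Hk3 (2.45 ± 0.06 SE, edgeR adjusted p = 3.71e-42) had the largest called changes. Slc2a1 (2.07 ± 0.07 SE, edgeR adjusted p = 8.77e-35), Hk2 (1.25 ± 0.06 SE, edgeR adjusted p = 1.29e-25), Gapdh (0.99 ± 0.05 SE, edgeR adjusted p = 4.85e-24), Pkm (0.84 ± 0.05 SE, edgeR adjusted p = 3.54e-21) and Ldha (1.48 ± 0.05 SE, edgeR adjusted p = 7.20e-33) rose as well. Slc16a1 was the 1 gene called in opposite directions, lower without the inhibitor (-0.43) and higher with it (0.40 ± 0.12 SE, edgeR adjusted p = 0.00174), and with library size only the value with the inhibitor was -0.019 (adjusted p = 0.881). Library size only moved the median of all genes to -0.43 here and gave 2333 genes higher and 6799 lower in place of 4152 and 4151. Eno2 was lower (-0.77 ± 0.20 SE, edgeR adjusted p = 0.00119). Pfkm did not pass the test (-0.27) but was called lower with library size only, and the Pfkfb4 call (-0.33) was lost without M0 + DGAT1i replicate 3 (adjusted p = 0.0579).

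Within a library the ratio of isozymes does not depend on scaling between libraries. Reads per kb of the longest coding transcript were used, and shares are of the named genes of the set only. Carriers listed outside the set were left out, among them Slc2a8 with 25.5 CPM, Slc16a7 with 23.5 CPM and Slc2a9 with 19.8 CPM in M0. In the same group Slc2a6 had 9.63 CPM and Slc16a1 24.3 CPM. Pdk2, with 7.56 CPM in M0, was left out as well. Of the reads per kb on the 3 hexokinases, Hk3 took 77.8% ± 2.07 (SD, n = 3) in M0 and 91.0% ± 0.0717 in IFNγ + LPS. Among the phosphofructokinases, Pfkp took 44.9% ± 1.26 in M0, 66.3% ± 1.09 in IFNγ + LPS and 61.9% ± 1.14 in IFNγ + LPS + DGAT1i, while Pfkm went from 10.3% ± 0.339 to 2.06% ± 0.219 upon activation. Slc2a6 took 24.5% ± 2.16 of the reads per kb on Slc2a1 plus Slc2a6 in M0 and 71.2% ± 0.942 in IFNγ + LPS, and with the inhibitor 12.5% ± 2.23 and 57.6% ± 1.09. Slc16a3 took 70.7% ± 0.866 of the reads per kb on Slc16a1 plus Slc16a3 in M0, 79.4% ± 1.94 in M0 + DGAT1i and 94.2% ± 0.919 in IFNγ + LPS. Pdk3 went from 24.1% ± 1.92 of Pdk1 plus Pdk3 in M0 to 47.3% ± 3.61 in IFNγ + LPS. The groups did not overlap for any of these changes. The shares depend on the length used. With the union of annotated exons, an alternative chosen after the data were seen, Pfkp took 29.1% in M0 and 51.3% in IFNγ + LPS and Pfkm 18.6% and 4.45%, and the Slc2a6 shares were 18.9% in M0, 63.9% in IFNγ + LPS, 9.32% in M0 + DGAT1i and 49.3% in IFNγ + LPS + DGAT1i. A ratio of 2 genes changes between groups by the same factor with either length. With 3 libraries against 3 the exact permutation test (two-sided) cannot go below p = 0.10, which was reached for Hk3/Hk1, Pfkp/Pfkl, Slc2a6/Slc2a1, Slc16a3/Slc16a1 and Pdk3/Pdk1 in these comparisons and gave 0.138 after Benjamini-Hochberg adjustment over 40 tests. Ratios of Hk2 to Hk1 by the longest coding transcript were 0.486 in M0, 0.619 in IFNγ + LPS, 0.743 in M0 + DGAT1i and 0.734 in IFNγ + LPS + DGAT1i. Which of them is higher depends on the length. With the exon union Hk2 and Hk1 took 8.14% and 9.14% of the hexokinase reads per kb in M0 and 3.70% and 3.24% in IFNγ + LPS. They took 10.8% and 7.84% in M0 + DGAT1i and 5.21% and 3.84% in IFNγ + LPS + DGAT1i.

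**Figure D5:**
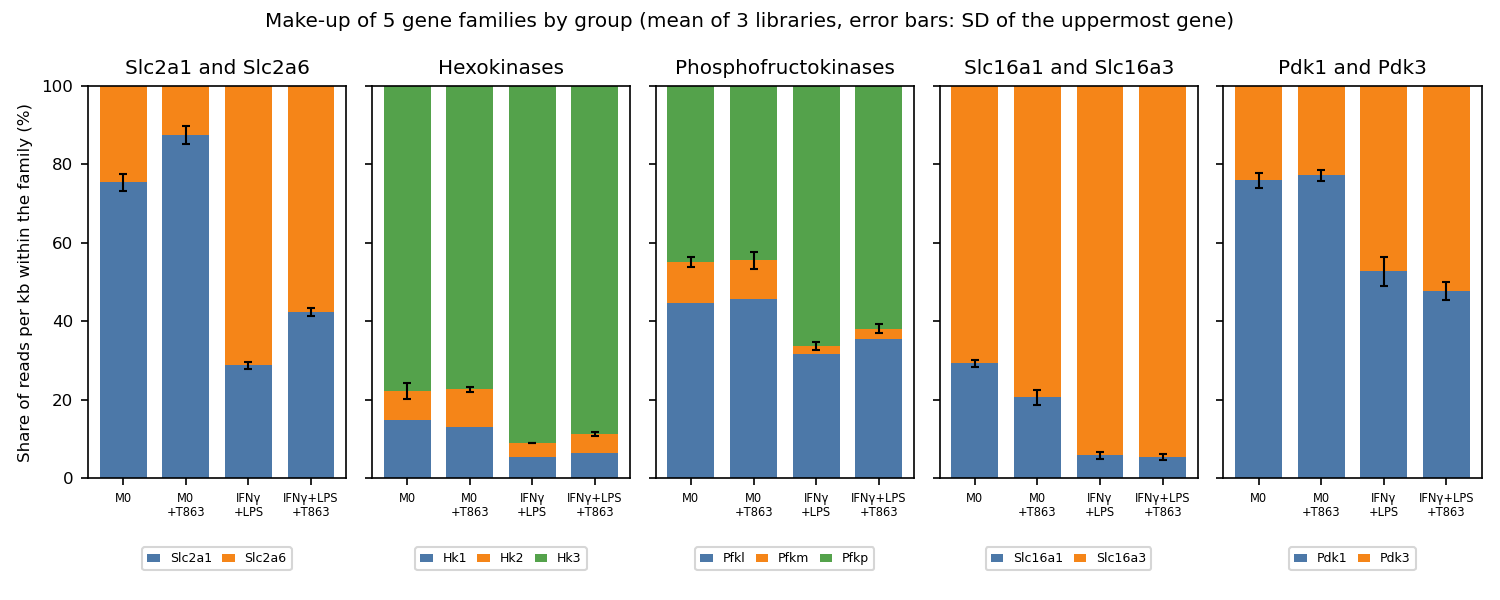
Share of each gene in the reads per kb of longest coding transcript of its family (%, mean of 3 libraries; error bars are the SD of the uppermost gene) in the 4 groups. A family here holds genes of the set only, so Slc2a8, Slc2a9, Slc16a7 and Pdk2 among others are left out. Slc2a6, Hk3, Pfkp, Slc16a3 and Pdk3 take larger shares in IFNγ + LPS than in M0, and the Slc2a6 share is smaller with T863 in both states.

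Further genes of both pathways were counted from lists. Of 37 other glycolysis genes 23 were tested, and 9 were higher and 11 lower in IFNγ + LPS against M0, beside 37.1% and 36.2% of all genes (median log2 fold change 0.014). With library size only 3 were higher and 14 lower. Gpd2, the mitochondrial glycerol-3-phosphate dehydrogenase, rose from 24.3 ± 0.676 CPM to 131 ± 11.1 CPM (SD, n = 3; log2 fold change 2.43, edgeR adjusted p = 2.48e-34), and Pgm1, which links glycogen and glucose-6-phosphate, had a log2 fold change of 1.84. Mpc1, a subunit of the mitochondrial pyruvate carrier, was higher (0.70), while the carriers Slc2a8 (-1.99), Slc2a3 (-1.71) and Slc16a7 (-1.33) were lower. With the inhibitor in IFNγ + LPS 4 were higher and 3 lower, beside 13.5% and 16.3% of all genes, and DESeq2 called 1 lower. Slc2a8 (0.68), Pgm1 (0.55 ± 0.06 SE, edgeR adjusted p = 5.72e-10), Mpc1 (0.29) and Bsg (0.28), the last named after its value was seen and known as a partner of the lactate carriers, were higher. The lower genes were the pyruvate dehydrogenase subunits Pdha1 and Pdhb and Pdp1, its activating phosphatase. Pdha1 had 67.9, 66.1 and 70.3 CPM against 91.8, 81.7 and 86.2 CPM (-0.34 ± 0.07 SE, edgeR adjusted p = 1.56e-04), Pdhb a log2 fold change of -0.27 and Pdp1 one of -0.30, the last pair not called by DESeq2 (adjusted p = 0.0546 and 0.0851) nor in 2 of 12 fits that left out a library. In resting cells 5 were higher and 1 lower, beside 11.0% and 13.4% of all genes, and library size only and DESeq2 each gave 3 higher. Among them were Pdp1 (0.65), Tigar (0.51) and Pgm1 (0.33) upward and Pgp (-0.57) downward. The difference of responses was called for Pgp (0.95), Slc2a8 (0.72), Pdp1 (-0.95) and Pdha1 (-0.54), where 18.5% of all genes were called, and library size only gave 4 higher in place of 2. With the inhibitor in both arms 7 were higher and 12 lower after activation, beside 35.3% of all genes in each direction, and 4 higher and 14 lower with library size only. Gpd2 (2.41), Pgm1 (2.06) and Mpc1 (1.01) were again higher, and Pfkfb1 (-1.86, 53 and 9 reads), Slc2a8 (-1.28) and Slc2a9 (-1.14) lower.

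Of 51 other HIF pathway genes 43 were tested, and 21 were higher and 15 lower in IFNγ + LPS against M0, beside 37.1% and 36.2% of all genes (median log2 fold change 0.15). With library size only 14 were higher and 23 lower. Nos2 was at least 34300-fold higher, from reads summed over the 3 libraries of a group and taking 3 reads over the 3 M0 libraries as the floor. Hmox1, the haem-degrading enzyme, rose by 3.07 on the log2 scale. Epas1, which encodes HIF2A, went from 62 reads to 1, Cxcr4 had a log2 fold change of -3.16 ± 0.14 (SE) and Plod2, a lysyl hydroxylase, had 73 reads in M0 and 6 in IFNγ + LPS.

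With the inhibitor in IFNγ + LPS, 21 of the 43 were higher, 3 lower and 19 not called (median log2 fold change 0.23), against 13.5% and 16.3% of all genes called in these directions. Plod2 had 5.97, 2.71 and 3.50 CPM against 0.842, 0.180 and 0.187 CPM (3.34 ± 0.52 SE, edgeR adjusted p = 6.58e-07, on 57 and 6 reads). P4ha2, another collagen prolyl hydroxylase subunit, had 40.6, 40.3 and 40.4 CPM against 9.26, 7.38 and 7.49 CPM (2.33 ± 0.14 SE, edgeR adjusted p = 4.66e-20). Hmox1 had 10686, 10906 and 11207 CPM against 3306, 3354 and 3737 CPM (1.66 ± 0.06 SE, edgeR adjusted p = 4.46e-31). Each was higher in every treated library. The transferrin receptor Tfrc (-1.14) and the ubiquitin ligase scaffold Cul2 (-0.24) were among the lower genes. In resting cells 9 were higher and 5 lower, beside 11.0% and 13.4% of all genes, among them Hmox1 (1.34), Bhlhe41 (0.79) and Hilpda (0.71), a lipid droplet protein that limits lipolysis, upward. Ankrd37 (-0.98), Epas1 (-0.85) and Ndrg1 (-0.53) were the lower ones of largest size, of which the Epas1 call (edgeR adjusted p = 0.0495) was lost with DESeq2, without the low-count filter, with the replicate block and in each fit that left out a library. The difference of responses was called higher for 11 of the 43 and lower for 3, beside 8.66% and 9.80% of all genes, with Plod2 (3.87), P4ha2 (1.79) and Ankrd37 (1.56) among the higher genes and Tfrc (-1.21) and Cul2 (-0.43) among the lower. With the inhibitor in both arms, 30 were higher and 9 lower after activation, beside 35.3% of all genes in each direction, and 19 and 13 with library size only. Nos2 was at least 41600-fold higher over the same floor, and Adm, which encodes the peptide adrenomedullin, had 6 reads in M0 + DGAT1i and 61 in IFNγ + LPS + DGAT1i (3.91). Cxcr4 (-3.80), Epas1 (35 and 2 reads) and Tfrc (-3.14) were lower.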

How the data were processed

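Total RNA was extracted, and 12 libraries made from it were sequenced. The authors deposited raw read counts per Ensembl gene in 1 table, which was used as deposited. The submitters' processing notes name GRCm38 and DESeq2, and the sources used here do not give the aligner, counter or annotation release. The labels name a low-input kit and the study's methods a stranded mRNA kit, so use of strand in counting is not known. Identifiers were matched to GENCODE M21 without their version (47310 of 47937).

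Counts were fitted in edgeR 4.0.16 (R 4.3.3) with TMM factors, filterByExpr (11760 genes), 1 mean per group over all 12 libraries, glmQLFit with robust = TRUE and glmQLFTest. P-values were Benjamini-Hochberg adjusted over all genes tested, with a threshold of 0.05, and the scripts were tested on simulated data. CPM are TMM-scaled, and 1 CPM is 4.28 to 7.58 reads in a library. Isozyme ratios used an exact permutation test over all splits of 3 against 3 libraries, with the Benjamini-Hochberg adjustment of scipy 1.17.1. Copies were searched with BLAST+ 2.17.0 (95% identity over at least 20% of the length). The members and gene lists were chosen with earlier results of these data known. In each comparison, log2 fold changes, intervals or reads are given for the 6 called members with the largest change at a mean of at least 1 CPM in 1 group and no overlap, for 8 fixed members, and for the 3 most changed genes of each other list and direction. A gene of the HIF list that this rule selects is not reported here. Alternatives were RLE factors, library size only, no filter, a mean of at least 1 CPM, DESeq2 1.42.0, the replicate number as a block, a fit of the compared libraries alone, a threshold of 0.1, and leaving out each library.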

Additional observations from a re-analysis of the deposited data

Results flagged for a closer look

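In all, 11 genes of the set stood out because the response to the inhibitor differed between stimulated and resting macrophages by the interaction test (edgeR's quasi-likelihood test, Benjamini-Hochberg adjusted over all genes). The difference (log2 response in IFNγ + LPS minus that in M0) was 0.84 for Slc16a1, 0.63 for Pdk3, 0.63 for Vhl, 0.53 for Bnip3, 0.51 for Egln1, 0.28 for Pgam1, 0.26 for Ldha and 0.26 for Slc16a3. It was -0.62 for Pfkfb3, -0.29 for Hk3 and -0.27 for Hif1a. Of all genes tested 18.5% passed the same test. The neutrophil marker sum was 63.0 to 81.0 CPM in IFNγ + LPS + DGAT1i and at most 38.7 CPM in the other groups. With the inhibitor the dendritic cell marker sum went from 5.62 to 7.16 CPM down to 1.04 to 1.40 CPM in stimulated cells and overlapped in resting cells, while the macrophage marker sum went from 12944 to 14197 CPM up to 15951 to 17985 CPM in resting cells and overlapped in stimulated cells. The part of these sums in the differences was not tested.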

How the results depend on the processing

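Among the log2 fold changes of single genes and isozyme ratios, under the alternatives other than leaving out a library and gene length, 1127 kept their direction and side of the threshold, 13 gained a call, 11 lost one and 4 reversed. Leaving out each library cost 25 calls, added 20 and left 2235 values on their side. The 4 reversals came with library size only, which moved the median of all genes to -0.46 and -0.43 after activation without and with DGAT1i: Arnt (-0.35 without and -0.27 with DGAT1i) and Egln1 (-0.20) after activation, and Slc16a1 (-0.019) after activation with DGAT1i. The same scaling gave 3 (IFNγ + LPS against M0), 3 (DGAT1i in M0), 4 (activation with DGAT1i) and 4 (difference of responses) other glycolysis genes higher, 23 other HIF pathway genes lower after activation and 19 higher after activation with DGAT1i, 2340 genes higher and 7002 lower after activation, and 2333 higher and 6799 lower after activation with DGAT1i. DESeq2 called 741 genes higher with DGAT1i in M0 and 741 lower in the difference of responses, with 1 other glycolysis gene lower in IFNγ + LPS and 3 higher in M0 with DGAT1i, and the cause was not tested. At an adjusted p under 0.1 the difference was lower for 6 members, and leaving out each library gave 2 to 6, the 6 without M0 + DGAT1i replicate 1. Without Gapdh and Aldoa the share of reads was 0.628%, 1.22%, 0.681% and 1.32% in M0, IFNγ + LPS, M0 + DGAT1i and IFNγ + LPS + DGAT1i.

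Replicate numbers are shared between groups. The deviations of same-numbered libraries correlated at -0.0217 to 0.0687 in 18 pairs, and those of other pairs at -0.0580 to 0.0381. Correlations this low cannot show whether same-numbered libraries share a mouse or culture. Whether the numbers pair the samples is therefore not known, and the main fit did not pair them. With the replicate number as a block Eno2 after activation (edgeR adjusted p = 0.0483) and the Pfkp difference of responses (0.0376) were called. Both calls were also gained without the low-count filter (that of Pfkp at an adjusted p of 0.00930), and that of Pfkp without M0 + DGAT1i replicate 1. The lower call of Epas1 with DGAT1i in M0 was lost under the block (0.0595). In that fit 26 members were higher and 7 lower in IFNγ + LPS against M0, 22 and 3 with DGAT1i in IFNγ + LPS, 11 and 1 with DGAT1i in M0, 27 and 5 for activation with DGAT1i, and 8 and 4 for the difference of responses. Over all genes the block gave 4371 and 4264, 1624 and 1944, 1346 and 1613, 4159 and 4151, and 1060 and 1208 in the same order. At 4996014 to 6621671 reads a library the calls of Egln3 (28 reads in M0), Ldhb, Aldoc, Eno2 and Plod2 rest on few reads, and a fall cannot be measured below the level of single reads. With the exon union as gene length, chosen after the data were seen, 108 levels per kb moved by more than their SD and 28 did not, and 69 isozyme shares moved and 3 did not.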

Other observations

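A further 3 genes of the HIF list moved down with the inhibitor in resting cells and up in stimulated cells, each with both calls and with the interaction called. They were chosen after their values were seen. Ndrg1, a stress-induced protein that hypoxia is known to raise, had 56.8, 56.9 and 42.7 CPM in M0 and 34.4, 37.5 and 36.8 CPM in M0 + DGAT1i (-0.53 ± 0.09 SE, edgeR adjusted p = 1.05e-05), and 28.4, 27.9 and 26.8 CPM in IFNγ + LPS and 41.4, 50.9 and 41.1 CPM in IFNγ + LPS + DGAT1i (0.69 ± 0.11 SE, edgeR adjusted p = 2.53e-06). Ccng2, an atypical cyclin, had log2 fold changes of -0.48 in resting and 0.82 in stimulated cells, and their difference was 1.30 ± 0.14 (SE, edgeR adjusted p = 3.26e-10). Ankrd37 had -0.98 and 0.58, with a difference of 1.56 ± 0.28 (SE, edgeR adjusted p = 2.68e-05). Its call in stimulated cells was lost with DESeq2 (adjusted p = 0.116), without the low-count filter (0.0930) and in 5 of 12 fits that left out a library.

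The opposite pattern was seen for Pdp1, the phosphatase that activates pyruvate dehydrogenase. It had 33.0, 28.6 and 38.6 CPM in M0 and 57.1, 52.0 and 47.9 CPM in M0 + DGAT1i (0.65 ± 0.09 SE, edgeR adjusted p = 2.68e-07), and 39.8, 50.4 and 42.1 CPM in IFNγ + LPS and 33.1, 37.8 and 36.9 CPM in IFNγ + LPS + DGAT1i (-0.30 ± 0.11 SE, edgeR adjusted p = 0.0274). The call in stimulated cells was lost with DESeq2 (adjusted p = 0.0851) and without IFNγ + LPS replicate 2 or IFNγ + LPS + DGAT1i replicate 1 (adjusted p up to 0.231). Mxi1, a MAX-binding repressor, had 14.9, 14.6 and 12.2 CPM in IFNγ + LPS and 44.1, 41.5 and 40.6 CPM with the inhibitor (1.60 ± 0.12 SE, edgeR adjusted p = 7.59e-17), against 29.1, 27.3 and 29.2 and 34.4, 32.4 and 30.6 CPM in resting cells, which did not pass the test (edgeR adjusted p = 0.145). Ak4, a mitochondrial adenylate kinase, had 43.0, 37.8 and 42.1 CPM in IFNγ + LPS and 74.1, 74.7 and 62.8 CPM with the inhibitor (0.79 ± 0.09 SE, edgeR adjusted p = 5.01e-10).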
